A study of Callithrix jacchus with 4 samples.

Results

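Potassium channel genes were examined in the frontal cortex of the common marmoset (Callithrix jacchus), a New World primate, by RNA sequencing of adult tissue. They were taken as every row of the deposited count table whose symbol starts with KCN, other than KCNJ10, which gave 93 genes of the 35108 in the table. The genes were grouped by the letters after KCN into voltage-gated subunits (A to D, H, Q and S), inward rectifiers (J), tandem-pore channels (K), channels gated by calcium or sodium (M, N, T and U) and auxiliary subunits (IP, AB and E). The modifier subunits (F, G and V) and the gene KCNRG, which carry none of these letters, were kept apart. The transgenic group held 2 libraries of animals with a mutant APP transgene, labelled female, and the wild-type group held 2 libraries with no sex given. APP encodes the amyloid precursor protein, and the human EF1α promoter that drives the transgene is known to be active in most cell types. Nothing in the labels states that each library is its own animal, so p-values measure only the spread between libraries, which may be technical. Since sex is labelled in one genotype alone, sex and genotype cannot be told apart.

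Potassium channels let potassium leave the cell and so bring the membrane back towards rest. In cortical neurons the voltage-gated members end the action potential and set firing rate, the inward rectifiers and tandem-pore members hold the resting potential, and the calcium- and sodium-gated members shape the afterpotential that follows a spike. Auxiliary subunits steer the channels to the membrane or change how fast they open and close. The comparison asks which of these genes differed in level between transgenic and wild-type cortex.

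Counts summed to 13462167 and 18932180 in transgenic libraries 1 and 2 and to 12657323 and 13569838 in wild-type libraries 1 and 2. Levels are given as CPM, counts scaled to a common library size by the TMM method, and 3 counts stood for 0.166 to 0.232 CPM. CPM is not corrected for transcript length, so levels are compared between libraries and not between genes. The cortical excitatory genes SLC17A7 and TBR1 and the interneuron genes GAD1 and GAD2 were counted in all 4 libraries. Transgenic library 2 stood apart in its summed glial markers. Sums over 9 astrocyte markers were 7409 and 2591 CPM in transgenic libraries 1 and 2, against 8257 and 6899 CPM in wild-type libraries 1 and 2. For 8 oligodendrocyte markers the sums were 3147 and 1156 CPM in transgenic libraries 1 and 2, against 3234 and 2530 CPM in the wild-type libraries. Fewer cells of a type and less RNA per cell cannot be told apart in such tissue samples.

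Potassium channel genes lay on either side of the wild-type level in transgenic cortex, and none passed the adjusted test in edgeR. Together the 93 genes took 0.563% and 0.557% of all counts in transgenic libraries 1 and 2, against 0.598% and 0.605% in the wild-type libraries. On the TMM-scaled level the sums were 5570 and 5834 CPM in transgenic libraries 1 and 2, against 5853 and 6001 CPM, so transgenic library 2 nearly equalled wild-type library 1. After the filter on low counts 72 of the 93 were tested. With edgeR's quasi-likelihood test and Benjamini-Hochberg adjustment no member reached the threshold of 0.05 (0% of the 16385 genes tested did), and the smallest adjusted p among members was 0.79. An unadjusted p under 0.05 was found for 6 members (8.33%), against 5.62% of all genes. Of these, 5 were lower in transgenic cortex (6.94% of members, against 2.39% of all genes) and 1 was higher (1.39%, against 3.23%). In sign 35 members were higher and 37 lower, which is 48.6% higher against 49.6% of all genes, and the members' median log2 fold change was -0.01, beside -0.0022 for all genes tested. DESeq2 called 1 member, KCNS1, against 0.293% of all genes, and limma-voom called none of the 72 (7 members at an unadjusted p under 0.05) and 0% of all genes. Both transgenic libraries lay above both wild-type libraries in 13 members (18.1%, against 19.5% of all genes) and below both in 17 (23.6%, against 19.4%). In the voltage-gated class 11 of 28 genes lay below both wild-type libraries (39.3%, against 19.4% of all genes) and 3 above (10.7%, against 19.5%). The modifier class had 2 of 5 genes above (40%) and 0 below. The class gated by calcium or sodium had 3 of 8 above (37.5%) and 1 below. In the inward rectifier, tandem-pore and auxiliary classes as many genes lay above as below. Differences between classes were not tested.

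KCNS1 encodes Kv9.1, a silent subunit that forms no channel alone and joins Kv2 subunits to alter their gating. It was at 142 and 149.5 CPM in transgenic libraries 1 and 2, against 255 and 232 CPM in wild-type libraries 1 and 2. Both transgenic libraries lay well below both wild-type libraries, and the libraries of each genotype lay close together. The fitted level was 1.67-fold lower (log2 fold change -0.74 ± 0.12 SE, n = 2 libraries per group), with an unadjusted p of 0.0016 in edgeR and an adjusted p of 0.79 in edgeR and 0.0031 in DESeq2. The log2 fold change was between -0.81 and -0.67 when each library was left out in turn. KCNS2, which encodes the silent subunit Kv9.2, was at 39.8 and 26.9 CPM in transgenic libraries 1 and 2, against 42.6 and 45.8 CPM in wild type. There the groups did not overlap either, but transgenic library 1 came close to wild-type library 1. KCNS3 (Kv9.3) overlapped between the genotypes, at 11.3 and 9.75 CPM in transgenic libraries, against 10.5 and 12.3 CPM. Their partner KCNB2, a Kv2 subunit that carries delayed rectifier current, was at 30.6 ± 2.5 CPM (mean ± SD, n = 2) in transgenic and 26.5 ± 4.7 CPM in wild-type cortex (adjusted p = 0.82 in edgeR).

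The KCNC genes encode the Kv3 channels, which open at strongly depolarised voltages, close fast, and let neurons such as parvalbumin interneurons fire at high rates. KCNC1 (Kv3.1) was at 100.5 and 89.3 CPM in transgenic cortex and at 127.5 and 122 CPM in wild type, without overlap (log2 fold change -0.39 ± 0.13 SE, n = 2 libraries per group; unadjusted p = 0.025 and adjusted p = 0.79 in edgeR). KCNC4 (Kv3.4) stood at 41.7 and 47.7 CPM in the transgenic libraries, against 53.8 and 49.5 CPM in wild type, a smaller gap in the same direction. KCNC2 (Kv3.2) differed from KCNC1 and KCNC4 in sign, with 247.5 and 216 CPM in transgenic libraries against 218 and 240 CPM in wild type and a log2 fold change of 0.02 ± 0.14 SE, which was negative (-0.02) with library totals left unscaled. Its share of the subfamily was separate by genotype. KCNC2 supplied 46.5% and 43.95% of KCNC counts in the transgenic libraries, against 34.8% and 39.2% in wild type.

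**Figure D1:**
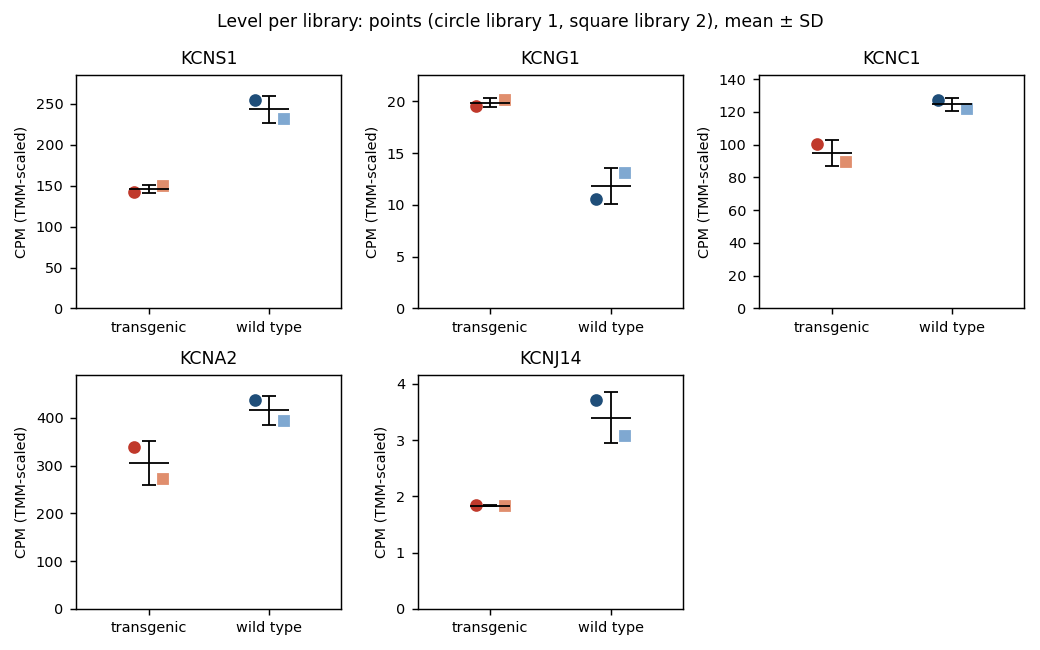
Level in CPM per library of 5 potassium channel genes with an unadjusted p under 0.05 in edgeR, with points for libraries and bars for mean ± SD (n = 2 libraries per genotype). KCNS1, KCNC1, KCNA2 and KCNJ14 were lower in both transgenic libraries and KCNG1 was higher in both, and no adjusted p was under 0.79.

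Markers of parvalbumin interneurons were read beside these genes. Of 5 markers listed 4 were measured, none at 0. They summed to 188 and 197 CPM in transgenic libraries 1 and 2, against 179 and 171 CPM in wild type. ERBB4 was the largest part of that sum, at 107 and 114 CPM in transgenic cortex, against 90.3 and 88.6 CPM in wild type. PVALB itself was at 29.6 and 25.4 CPM in transgenic cortex, against 44.5 and 35.5 CPM in wild type, while TAC1, LHX6 and ERBB4 were higher in both transgenic libraries. The GABA synthesis genes GAD1 and GAD2 were higher too, at 287 and 320 CPM and at 284 and 311 CPM in transgenic cortex, against 232 and 247 CPM and 232 and 235 CPM in wild type. Of the 3 further interneuron markers, VIP was higher without overlap, SST overlapped, and LAMP5 was lower without overlap, at 41.7 and 60.1 CPM in transgenic cortex, against 64.9 and 66.9 CPM in wild type. PVALB and LAMP5 therefore had the same direction as KCNC1 and KCNS1, and TAC1, LHX6, ERBB4, GAD1, GAD2 and VIP the opposite one. Their part in the potassium channel values was not tested.

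The KCNA genes encode the Kv1 channels, low-threshold channels that in axons limit repeated firing. KCNA2 (Kv1.2) was at 338.5 and 272.5 CPM in transgenic libraries 1 and 2, against 437 and 393 CPM in wild-type libraries 1 and 2. All 4 values were separate by genotype, and the fitted level was 1.36-fold lower (log2 fold change -0.44 ± 0.16 SE, n = 2 libraries per group; unadjusted p = 0.038 and adjusted p = 0.79 in edgeR). KCNA1 (Kv1.1), which forms mixed channels with Kv1.2, was at 139 and 90.1 CPM in transgenic cortex and at 176 and 162 CPM in wild type. It was also lower in both transgenic libraries, more so in library 2, with a log2 fold change of -0.56 ± 0.23 SE (unadjusted p = 0.052 in edgeR). KCNA3 (Kv1.3), known from lymphocytes and microglia as well as neurons, went the other way, at 89.8 and 84 CPM in transgenic cortex, against 56.6 and 78.8 CPM in wild type (log2 fold change 0.36 ± 0.19 SE; adjusted p = 0.79 in edgeR). The 7 microglial markers measured, none at 0, summed to 120 and 75.8 CPM in transgenic cortex, against 167 and 214 CPM in wild type. Of these, 4 were lower without overlap, and C1QB, CX3CR1 and P2RY12 overlapped. The part of microglia in the KCNA3 values was not tested. KCNA6 (Kv1.6) overlapped between the groups, at 71.6 and 60.3 CPM in transgenic libraries against 52.6 and 65.5 CPM. KCNA5 (Kv1.5) was at 25 and 21.4 CPM in transgenic libraries, against 24.1 and 28.3 CPM, also with overlap. KCNA4 (Kv1.4), an A-type channel that inactivates quickly, had the highest and the lowest value of the 4 libraries in the transgenic pair, with 38.7 and 14.95 CPM in transgenic libraries 1 and 2 against 24.7 and 32.4 CPM. Within the subfamily the shares of KCNA1 and KCNA2 were smaller in both transgenic libraries and those of KCNA3 and KCNA6 larger. KCNA3 supplied 12.8% and 15.5% of KCNA counts in transgenic libraries, against 7.33% and 10.4% in wild type, and KCNA2 48.2% and 50.2%, against 56.7% and 51.7%.

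Kv1 channels carry cytoplasmic β subunits encoded by the KCNAB genes. KCNAB1, whose product speeds inactivation, was at 89.4 and 120 CPM in transgenic libraries 1 and 2, against 82.6 and 80.3 CPM in wild type (log2 fold change 0.37 ± 0.18 SE, n = 2 libraries per group; adjusted p = 0.79 in edgeR). Transgenic library 2 was far above and library 1 only just above the wild type. KCNAB2 spanned 466 to 652 CPM in the transgenic pair and 542 to 588 CPM in wild type, so the wild-type values lay between the transgenic ones. KCNAB3 was at 37.6 and 34.1 CPM in transgenic cortex, against 49.98 and 38.5 CPM in wild type, with transgenic library 1 just below wild-type library 2.

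**Figure D2:**
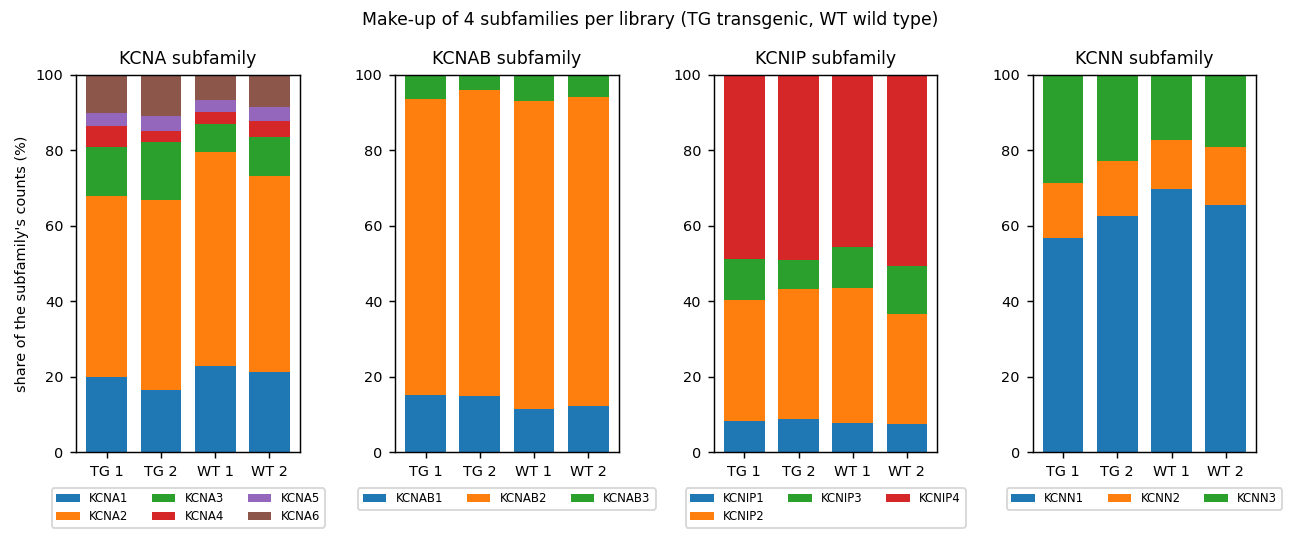
Share of each subfamily's counts, in %, supplied by each gene in transgenic libraries 1 and 2 and wild-type libraries 1 and 2, for the KCNA, KCNAB, KCNIP and KCNN subfamilies; genes under 0.5% in every library are not drawn. KCNA3, KCNAB1, KCNIP1 and KCNN3 took a larger share in both transgenic libraries than in either wild-type library, and KCNA2, KCNAB2, KCNIP3 and KCNN1 a smaller one.

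The KCND genes encode the Kv4 channels of the dendritic A-type current, and the KCNIP proteins (KChIPs) and the transmembrane partners DPP6 and DPP10 are their auxiliary subunits. KCND3 (Kv4.3) was at 165 and 217.5 CPM in transgenic libraries 1 and 2, against 150.0 and 147 CPM in wild type. The groups did not overlap, and the fitted level was 1.29-fold higher (log2 fold change 0.37 ± 0.17 SE, n = 2 libraries per group; adjusted p = 0.79 in edgeR). KCND2 (Kv4.2) had nearly equal transgenic values, 80.5 and 80.4 CPM, which lay between the wild-type values of 65.9 and 87.2 CPM. KCND1 was low, with 35 to 38 counts in the transgenic and 27 to 51 in the wild-type libraries. Among the KChIPs, KCNIP1 was at 28.96 and 39.3 CPM in transgenic cortex, against 28.2 and 26.3 CPM in wild type, and KCNIP4 was at 171 and 220.1 CPM, against 165 and 179 CPM. KCNIP2 was at 112 and 154 CPM in transgenic libraries 1 and 2, against 128 and 103 CPM. In these genes transgenic library 2 was the highest of the 4 and library 1 lay near the wild type. KCNIP3, also known as calsenilin for its binding to presenilins, was lower in both transgenic libraries, at 37.7 and 34.3 CPM against 39.9 and 45.6 CPM (log2 fold change -0.25 ± 0.16 SE; adjusted p = 0.79 in edgeR). The partner gene DPP10 was at 124 and 169 CPM in transgenic cortex, against 93.6 and 114 CPM in wild type (log2 fold change 0.50 ± 0.20 SE; adjusted p = 0.79), and DPP6 at 245 and 346 CPM, against 241 and 253 CPM.

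The KCNQ genes encode the Kv7 channels, whose slow M-current restrains neuronal firing. KCNQ3 (Kv7.3) was at 266 and 318 CPM in transgenic libraries 1 and 2, against 239 and 255 CPM in wild type (log2 fold change 0.24 ± 0.14 SE, n = 2 libraries per group; adjusted p = 0.79 in edgeR). KCNQ5 (Kv7.5) was at 229 and 272 CPM in transgenic cortex, against 208.5 and 239 CPM. AKAP5, a scaffold that brings kinases and calcineurin to Kv7 channels, was at 91.4 and 99.7 CPM in transgenic cortex, against 59.97 and 78.6 CPM (log2 fold change 0.46 ± 0.17 SE; unadjusted p = 0.041 and adjusted p = 0.79 in edgeR).

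Of the 7 KCNH genes tested, 6 were lower in sign in transgenic cortex, mostly by little. KCNH7, of the ether-a-go-go related (erg) type, was at 44.3 and 45.4 CPM in transgenic libraries against 50.5 and 54.7 CPM in wild type (log2 fold change -0.23 ± 0.14 SE; adjusted p = 0.79 in edgeR). KCNH3, of the ether-a-go-go like (elk) type, was at 97.5 and 110.5 CPM in transgenic libraries against 114 and 115 CPM. Both were lower without overlap. KCNH1 was at 43.5 ± 5.6 CPM (mean ± SD, n = 2) in transgenic and 44.3 ± 5.5 CPM in wild-type cortex, KCNH2 at 31.9 ± 0.46 and 33.3 ± 2.5 CPM in the same order, and KCNH5 at 93.6 ± 3.3 CPM in transgenic and 90.3 ± 21.4 CPM in wild-type cortex. In these 3 genes the means of the genotypes were closer than the wild-type libraries to each other.

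The modifier subunits, like KCNS, are silent alone and change Kv2 channels. All 5 modifier genes tested were higher in sign, against 49.6% of all genes. The 3 KCNS genes tested, kept in the voltage-gated class, were all lower in sign. KCNG1 (Kv6.1) was at 19.6 and 20.2 CPM in transgenic libraries 1 and 2, against 10.6 and 13.1 CPM in wild-type libraries 1 and 2. The transgenic values nearly coincided above both wild-type values, and the fitted level was 1.68-fold higher (log2 fold change 0.74 ± 0.21 SE, n = 2 libraries per group; unadjusted p = 0.014 and adjusted p = 0.79 in edgeR; unadjusted p = 0.012 and adjusted p = 0.67 in DESeq2). KCNG3 (Kv6.3) was at 10.5 and 8.69 CPM in transgenic cortex, against 5.65 and 8.19 CPM. KCNG2 was at 5.37 and 8.14 CPM in transgenic libraries 1 and 2, against 7.51 and 5.34 CPM in wild type. For KCNF1 (Kv5.1) and KCNV1 (Kv8.1) the wild-type libraries themselves were far apart. KCNF1 was at 108 and 109 CPM in transgenic libraries against 76 and 110.2 CPM in wild type, and KCNV1 at 115 and 89.3 CPM in transgenic libraries against 69.95 and 118 CPM. In both genes the transgenic values lay inside the wild-type range. NEUROD6, a marker of excitatory neurons, was also lowest in wild-type library 1, with 119 and 114 CPM in transgenic cortex and 70.4 and 119 CPM in wild type. The 6 excitatory markers, none at 0, summed to 4386 and 4904 CPM in transgenic cortex, against 4131 and 4839 CPM in wild type. Their part in the values of KCNF1 and KCNV1 was not tested.

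**Figure D3:**
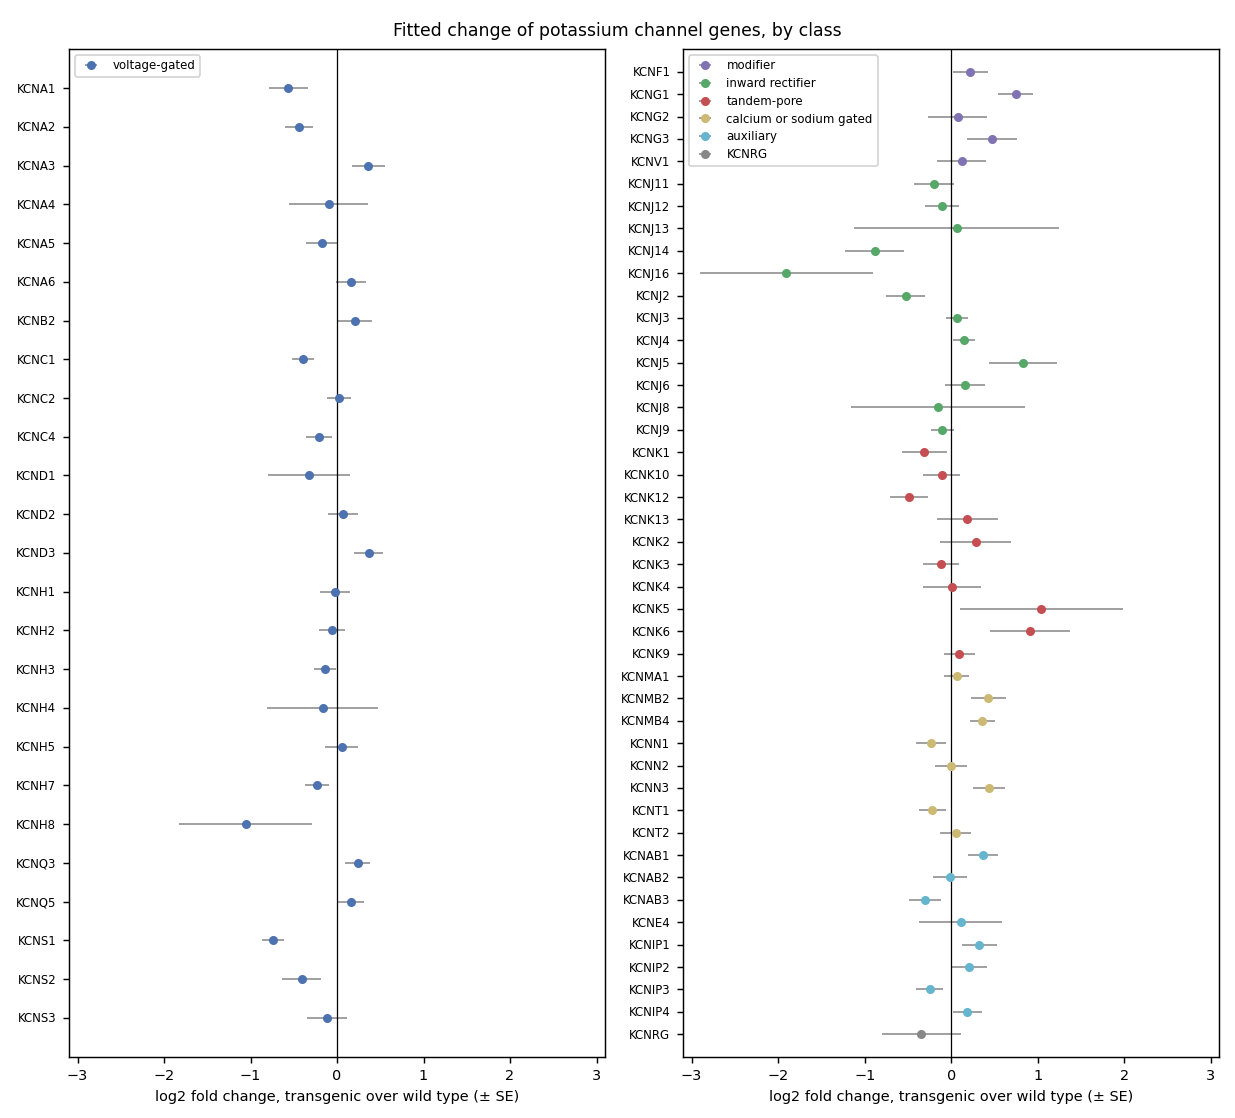
Fitted log2 fold change, transgenic over wild type, of potassium channel genes, with bars of ± 1 SE from edgeR and colours for classes (n = 2 libraries per genotype). Most genes lie within 0.5 of 0, KCNS1 has the longest distance from 0 relative to its error among the genes drawn, and KCNJ16, KCNJ13, KCNJ8 and KCNK5 have the widest bars.

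Inward rectifiers pass potassium more easily into than out of the cell. The Kir3 (GIRK) members are opened by G proteins downstream of GABA-B and other receptors, and 3 of the 4 had log2 fold changes near 0. KCNJ3 (Kir3.1) was at 175 ± 6.1 CPM (mean ± SD, n = 2) in transgenic and 167 ± 11.9 CPM in wild-type cortex, KCNJ6 (Kir3.2) at 15.5 ± 3.2 CPM in transgenic and 13.8 ± 0.55 CPM in wild-type cortex, and KCNJ9 (Kir3.3) at 318 ± 9.6 CPM in transgenic and 341 ± 31.5 CPM in wild-type cortex. The log2 fold changes of these 3 genes lay between -0.10 and 0.16, with adjusted p between 0.86 and 0.89 in edgeR. KCNJ5 (Kir3.4) had few counts, 37 and 74 in transgenic libraries 1 and 2 against 28 and 23 in wild type, and was higher without overlap (log2 fold change 0.83 ± 0.39 SE; adjusted p = 0.79 in edgeR).

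Among the Kir2 members, which hold the resting potential, the directions were mixed. KCNJ14 (Kir2.4) had 25 and 33 counts in transgenic libraries 1 and 2, or 1.84 and 1.83 CPM, against 48 and 42 counts, or 3.71 and 3.07 CPM, in wild type. The transgenic values were nearly equal and lay below both wild-type libraries (log2 fold change -0.89 ± 0.34 SE, n = 2 libraries per group; unadjusted p = 0.045 and adjusted p = 0.79 in edgeR; unadjusted p = 0.16 in DESeq2). KCNJ2 (Kir2.1) was at 9.7 and 7.97 CPM in transgenic cortex, against 12.7 and 12.7 CPM in wild type (log2 fold change -0.53 ± 0.23 SE; adjusted p = 0.79 in edgeR). KCNJ2 is known from endothelial cells as well as neurons, and the 5 endothelial markers, none at 0, summed to 130 and 112 CPM in transgenic cortex, against 219 and 168 CPM in wild type. CLDN5, FLT1, ESAM and PECAM1 were each lower without overlap. CDH5 overlapped and was highest in transgenic library 2, at 9.48 and 21.8 CPM in transgenic cortex, against 11.9 and 13.2 CPM. The part of endothelial cells in the KCNJ2 values was not tested. KCNJ4 (Kir2.3) was slightly higher in both transgenic libraries, at 100.3 and 92.5 CPM against 84.7 and 89.7 CPM (log2 fold change 0.14 ± 0.12 SE; adjusted p = 0.81 in edgeR). KCNJ12 (Kir2.2) was at 15.6 ± 0.60 CPM in transgenic and 16.8 ± 1.9 CPM in wild-type cortex. The human genome holds a near-identical copy of this gene. Whether marmoset reads were split with such a copy was not tested.

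KCNJ11 (Kir6.2), the pore of ATP-sensitive channels that close when the cell's energy supply is high, was at 23.1 and 19.1 CPM in transgenic libraries 1 and 2, against 20.3 and 27.9 CPM in wild type. Its regulatory subunit gene ABCC8 (SUR1) was at 24.4 and 16.3 CPM in transgenic cortex, against 28.3 and 29.2 CPM in wild type (log2 fold change -0.50 ± 0.24 SE; adjusted p = 0.79 in edgeR). ABCC9 (SUR2), which pairs with KCNJ8 in pericytes and smooth muscle, was at 8.38 and 4.87 CPM in transgenic cortex, against 10.8 and 9.36 CPM. Both regulatory subunit genes were lower without overlap, and the pore gene overlapped. KCNJ8 (Kir6.1) had 15 and 2 counts in transgenic libraries 1 and 2, against 10 and 7 in wild type. The 5 mural cell markers, ABCC9 among them and none at 0, summed to 216 and 215 CPM in transgenic cortex, against 221 and 211 CPM in wild type. RGS5 made up most of that sum, at 179.8 and 194 CPM in transgenic libraries 1 and 2, against 181 and 174 CPM. ACTA2 and NOTCH3 were lowest in transgenic library 2, as ABCC9 and KCNJ8 were. ACTA2 was at 5.51 and 2.33 CPM in transgenic libraries 1 and 2, against 4.80 and 5.56 CPM. NOTCH3 was at 9.55 and 2.55 CPM, against 11.9 and 8.12 CPM. PDGFRB was lowest there by little, at 12.8 and 11.4 CPM, against 11.8 and 13.2 CPM, and RGS5 was highest there. The part of mural cells in the KCNJ8 and ABCC9 values was not tested.

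Tandem-pore channels carry the background leak current, and of 10 tested 6 were higher and 4 lower in sign. KCNK12 (THIK-2), a subunit that by itself carries little current, was at 48.8 and 33.1 CPM in transgenic libraries 1 and 2, against 55.5 and 59.3 CPM in wild type. Both transgenic values lay below both wild-type values, library 2 by more (log2 fold change -0.49 ± 0.22 SE, n = 2 libraries per group; adjusted p = 0.79 in edgeR). KCNK6 was higher without overlap on few counts, 20 and 42 in transgenic libraries against 11 and 16 in wild type (log2 fold change 0.91 ± 0.46 SE; adjusted p = 0.79 in edgeR). KCNK1 (TWIK-1), found in astrocytes and neurons, was at 81.95 and 55.4 CPM in transgenic libraries 1 and 2, against 69.6 and 100.3 CPM in wild type. KCNK2 (TREK-1), opened by stretch and lipids, was at 22.3 and 13.8 CPM in transgenic libraries, against 9.9 and 19.7 CPM. In both genes the spread within a genotype was wider than the gap between genotypes. The acid-sensitive members KCNK3 (TASK-1) and KCNK9 (TASK-3) differed by less than the spread within groups, at 14.6 ± 2.1 and 40.3 ± 3.0 CPM (mean ± SD, n = 2) in transgenic cortex, against 15.9 ± 1.4 and 37.8 ± 5.8 CPM in wild type. KCNK10, KCNK4 and KCNK13 (THIK-1, a channel of microglia) had log2 fold changes between -0.11 and 0.19 with overlap.

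Among calcium- and sodium-gated channels the BK pore gene overlapped between genotypes and both of its tested β subunit genes were higher in both transgenic libraries. KCNMA1, the pore of the large-conductance (BK) channel, was at 365 and 426 CPM in transgenic libraries 1 and 2, against 385 and 372.5 CPM in wild type (log2 fold change 0.06 ± 0.14 SE, n = 2 libraries per group; adjusted p = 0.92 in edgeR). KCNMB4, its main neuronal β subunit, which slows opening, was at 56.96 and 63.4 CPM in transgenic cortex, against 43.7 and 49.95 CPM in wild type. KCNMB2, a β subunit that inactivates the channel, was at 14.6 and 15.9 CPM in transgenic cortex, against 10.99 and 11.6 CPM. In both genes the 2 genotypes were separate, with log2 fold changes of 0.36 ± 0.15 SE for KCNMB4 (unadjusted p = 0.057) and 0.43 ± 0.20 SE for KCNMB2 (unadjusted p = 0.081), each with an adjusted p of 0.79 in edgeR. LRRC55, a BK γ subunit gene, was at 37.6 and 16.3 CPM in transgenic libraries 1 and 2, against 39.6 and 38.03 CPM, with library 1 only just below wild type.

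The small-conductance (SK) genes KCNN1 to KCNN3 encode channels opened through bound calmodulin. KCNN3 (SK3) was at 28.3 and 23.4 CPM in transgenic libraries 1 and 2, against 19.5 and 18.5 CPM in wild type (log2 fold change 0.44 ± 0.19 SE, n = 2 libraries per group; unadjusted p = 0.059 and adjusted p = 0.79 in edgeR). KCNN1 (SK1) leaned the other way with overlap, at 56.2 and 65.1 CPM in transgenic libraries against 79.7 and 63.4 CPM. KCNN2 (SK2) was at 14.9 ± 0.44 CPM (mean ± SD, n = 2) in transgenic and 14.9 ± 0.096 CPM in wild-type cortex, a log2 fold change of -0.01 ± 0.19 SE that was positive (0.0063) without a filter on low counts. KCNN3 thus supplied 28.5% and 22.5% of KCNN counts in the transgenic libraries, against 17.1% and 19.1% in wild type. Of the sodium-activated channels, KCNT1 (Slack) was slightly lower in both transgenic libraries, at 31.5 and 34.9 CPM against 39.9 and 37.3 CPM, and KCNT2 (Slick) overlapped, at 40.8 and 32.3 CPM in transgenic libraries against 34.3 and 36.3 CPM.

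Some members differed more between the transgenic libraries than between the genotypes. Over the 72 genes the median absolute log2 difference was 0.25 between the transgenic libraries and 0.20 between the wild-type libraries (0.28 and 0.18 over all genes tested). In transgenic library 2, 16 members lay over 0.5 below the wild-type mean on the log2(CPM + 0.5) scale and 6 over 0.5 above it. In transgenic library 1 there were 5 below and 6 above. The share of all genes past 0.5 was not counted, so these counts cannot show a trait of potassium channel genes. KCNJ16 (Kir5.1), which joins Kir4.1 in astrocytes, had 66 and 12 counts in transgenic libraries 1 and 2, against 203 and 63 in wild-type libraries 1 and 2. Transgenic library 1 and wild-type library 2 were alike at 4.85 and 4.61 CPM, wild-type library 1 stood above them at 15.7 CPM and transgenic library 2 below at 0.665 CPM. The log2 fold change of -1.91 ± 0.997 SE (n = 2 libraries per group; adjusted p = 0.79 in edgeR) became -1.06 when transgenic library 2 was left out and -0.76 when wild-type library 1 was left out. The 9 astrocyte markers, none at 0, summed to 7409 and 2591 CPM in transgenic libraries, against 8257 and 6899 CPM in wild type. That sum too was lowest in transgenic library 2. Its largest part was SLC1A2, at 4337 and 999 CPM in transgenic libraries 1 and 2, against 4922 and 4173 CPM. GFAP was not lowest in transgenic library 2, at 757 and 635 CPM, against 695 and 517 CPM in wild type. The part of astrocytes in the KCNJ16 value was not tested.

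Other genes were lower in transgenic library 2 than in transgenic library 1. Among them were the well counted KCNA4 and KCNK1 and several genes with fewer counts. KCNH4 had 106 and 37 counts in transgenic libraries 1 and 2, against 60 and 86 in wild type. KCNH8, an elk channel gene, had 11 and 3 counts in transgenic libraries 1 and 2, against 12 and 14 in wild type. It was lower without overlap, with library 1 only just below wild type (log2 fold change -1.06 ± 0.77 SE, adjusted p = 0.80 in edgeR). KCNJ13 (Kir7.1), known from choroid plexus and retinal pigment epithelium, had 43 and 6 counts in transgenic libraries 1 and 2, against 6 and 38 in wild type. It was high in 1 library and low in the other of each genotype. KCNK5 (TASK-2) had 55 and 12 counts in transgenic libraries 1 and 2, against 8 and 22 in wild type, and transgenic library 1 was the high one.

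**Figure D4:**
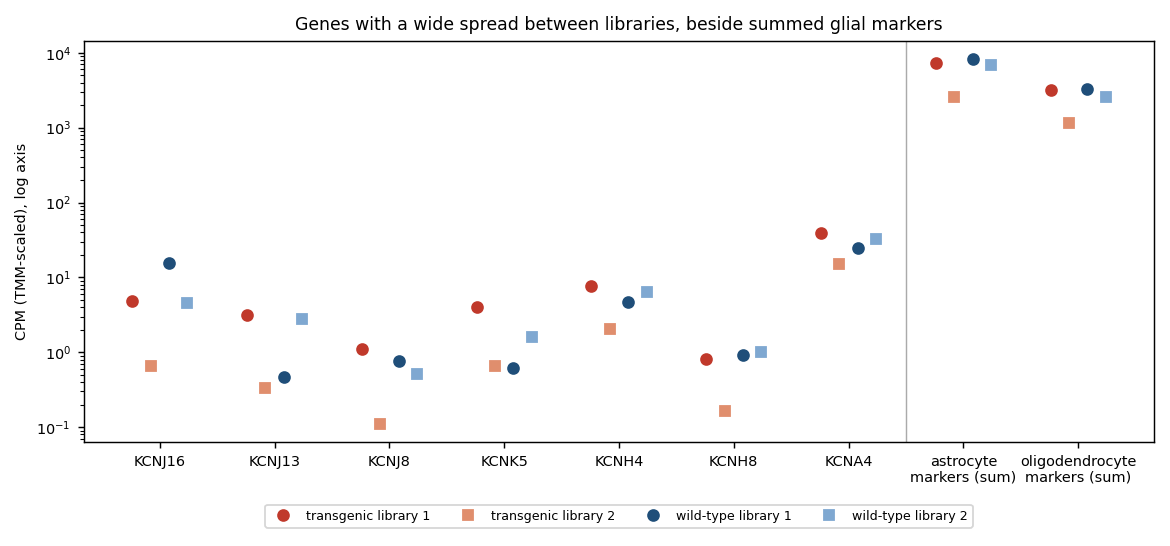
Level in CPM (log axis) per library of 7 potassium channel genes with a wide spread between libraries, beside the summed CPM of 9 astrocyte and 8 oligodendrocyte markers. Transgenic library 2 is the lowest of the 4 for KCNJ16, KCNJ13, KCNJ8, KCNH4, KCNH8 and KCNA4 and for both glial sums, and KCNK5 is lowest in wild-type library 1.

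The fits that leave out a transgenic library gave different pictures. Without transgenic library 2, edgeR called 0 members, against 0.0175% of all genes. Without transgenic library 1 it called 10 members (13.7% of the 73 tested in that fit), against 9.92% of all genes, with the spread then taken from the wild-type pair alone. Of these, 8 were lower in transgenic library 2 and 2 were higher. Among the lower ones the log2 fold change of KCNJ16 stood at -3.91 (adjusted p = 0.026 in edgeR), KCNA4 of -0.93 (adjusted p = 0.047), KCNA1 of -0.91 (adjusted p = 0.0093), KCNK12 of -0.80 (adjusted p = 0.0205), KCNS2 of -0.72 (adjusted p = 0.038), KCNS1 of -0.70 (adjusted p = 0.026) and KCNA2 of -0.61 (adjusted p = 0.041). The higher ones were KCNAB1 (0.56, adjusted p = 0.037) and KCND3 (0.55, adjusted p = 0.044). In KCNS1 the log2 fold change without transgenic library 2 was -0.78, whereas in KCNA4 it was 0.43, the opposite sign.

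**Figure D5:**
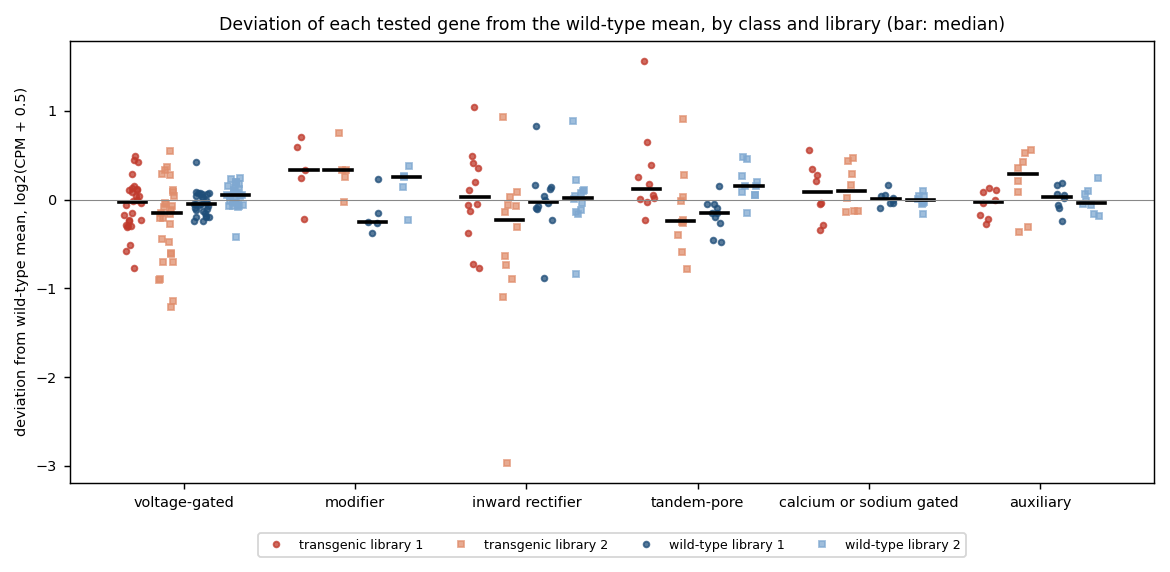
Deviation of each tested potassium channel gene from the wild-type mean on the log2(CPM + 0.5) scale, by class and library, with bars at the class medians. Voltage-gated genes have medians of -0.026 and -0.15 in transgenic libraries 1 and 2, the auxiliary genes 0.28 in transgenic library 2 and -0.024 in library 1, and the lowest point is KCNJ16 in transgenic library 2.

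By class, the median log2 fold change was -0.13 for the 28 voltage-gated genes, 0.22 for the 5 modifier genes, -0.11 for the 12 inward rectifiers, 0.05 for the 10 tandem-pore genes, 0.06 for the 8 gated by calcium or sodium and 0.15 for the 8 auxiliary genes. With transgenic library 1 left out the auxiliary median was 0.28, and with library 2 left out it was -0.03. Leaving out transgenic library 1 moved the inward rectifier median to -0.24, and leaving out library 2 moved it to 0.02. No class median was tested.

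The 21 members that were not tested had at most 14 counts in any library, and 4 of them (KCNA7, KCNK18, KCNU1 and KCNV2) had none. KCNQ1, the heart channel Kv7.1, was the most counted of the 21, with 11 and 14 counts in transgenic libraries 1 and 2 against 9 and 10 in wild type. KCNN4, the intermediate-conductance channel of microglia and blood cells, had 3 and 6 counts in transgenic libraries, against 3 and 2. Of the KCNE genes, whose small proteins accompany Kv7 and other pores, KCNE4 alone was tested (14 and 18 counts in transgenic libraries, against 9 and 16), and KCNE3 had 1 and 4 counts, against 3 and 5. KCNRG, a gene for a protein that hinders assembly of potassium channels, had 39 and 27 counts in transgenic libraries, against 41 and 32 in wild type. The untested genes had too few counts to pass the filter, so the main fit cannot say whether they differed. Without the filter edgeR tested 89 members and called 0, against 0.018% of all genes. An unadjusted p under 0.05 was then found for 8 members (8.99%, against 5.67% of all genes).

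Genes for partner proteins of potassium channels and the related HCN channels were read as a list of 31, of which 29 were tested. No adjusted p from edgeR was under 0.05, 1 gene (AKAP5) had an unadjusted p under 0.05, 16 were higher and 13 lower in sign, and the median log2 fold change was 0.01. Both transgenic libraries lay above both wild-type libraries in 6 of them (20.7%, against 19.5% of all genes) and below in 8 (27.6%, against 19.4%). CNTNAP2, which gathers Kv1 channels beside the nodes of myelinated axons, was at 237 and 323 CPM in transgenic libraries 1 and 2, against 206 and 212 CPM in wild type (log2 fold change 0.42 ± 0.18 SE, n = 2 libraries per group; adjusted p = 0.79 in edgeR). Its relative CNTNAP1 was lower in both transgenic libraries, at 328 and 361 CPM against 384 and 388 CPM. LGI1 and ADAM22, a secreted protein and its receptor that associate with Kv1 channels, had log2 fold changes of -0.36 and -0.04. HCN2, a channel opened by hyperpolarisation, was at 129 and 173 CPM in transgenic cortex, against 222 and 175 CPM in wild type. The calmodulin genes CALM2 and CALM3, whose product is the calcium sensor of SK and Kv7 channels, had log2 fold changes of 0.01 and -0.01.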

How the data were processed

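RNA of 4 frontal cortex libraries was sequenced. The authors deposited raw counts of reads for each gene symbol, with a column for every library. STAR 2.5.3a is listed in the submitters' processing notes, as are featureCounts 1.5.2 and kallisto 0.46.2, with no order. Build, annotation and strandedness were not stated, so reads of overlapping genes cannot be told apart. All 93 members matched a protein-coding symbol in a RefSeq table of the marmoset, used for names only.

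R 4.3.3 was used. Genes passing filterByExpr (16385) were scaled by TMM, and edgeR 4.0.16 compared the genotypes by its quasi-likelihood test, without covariates and with 2 residual degrees of freedom. Benjamini-Hochberg adjustment covered every gene tested, at 0.05. The SE is the absolute log2 fold change over the square root of F. Deviations use log2(CPM + 0.5).

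Alternatives were DESeq2 1.42.0, voom in limma 3.58.1, other scalings and filters, a replicate block and leaving out each library. The members and lists were chosen with earlier results of these data known. Named genes were a set list, members with an unadjusted p under 0.05, the 8 largest non-overlapping differences per direction and the 2 most counted members per subfamily; KCNA3, KCNA5, KCND1, KCNG2, KCNH2, KCNH4, KCNJ12, KCNJ13, KCNK4, KCNK5, KCNK10, KCNK13 and KCNS3, and the partner genes given, were added after their values were seen. Some genes within the counts are not reported here. The steps were tested on simulated data.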

Additional observations from a re-analysis of the deposited data

How the results depend on the processing

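DESeq2, limma-voom, other scalings and filters and both replicate blocks were compared with the main fit. Of 58 named members tested, 56 kept their sign in each of these fits that tested them. The exceptions were KCNC2 with library totals left unscaled (-0.025) and KCNN2 with no filter on low counts (0.0063). The filter at a mean count of at least 50 tested only 51 of the 58. Members with few counts, such as KCNH8, KCNJ14 and KCNK6, have no value there. DESeq2 called 48 genes and 1 member, and testing without the filter called 5 genes. The class median of genes gated by calcium or sodium was 0.044 with limma-voom and 0.011 with unscaled totals, and that of auxiliary genes was -0.12 without the filter, which adds genes with few counts. Partner genes with an unadjusted p under 0.05 numbered 3 with DESeq2, 2 with unscaled totals and 3 without the filter. Over all genes tested, the difference between libraries 1 and 2 had a correlation of -0.13 between the genotypes. Each genotype gives only 1 such difference, so this cannot decide whether libraries with the same number belong together. With the replicate block 0 genes and 0 members were called in edgeR and 2 partner genes had an unadjusted p under 0.05. With the numbers crossed, a fit chosen after seeing the data, 0 genes were called.

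Leaving out 1 library at a time, edgeR called 0 to 1710 genes and 0 to 10 members, and 1 to 22 members had an unadjusted p under 0.05 (1.37% to 30.1%, against 1.54% to 26.6% of all genes in the same fits); the highest values came without transgenic library 1. Under the looser criterion of 3 libraries, members not overlapping numbered 18 to 27 higher (24.7% to 37.0%, against 31.2% to 39.9% of all genes) and 23 to 36 lower (31.5% to 49.3%, against 31.5% to 40.8%). The members' median ranged over -0.11 to 0.052, and the class medians over these ranges: voltage-gated (-0.16 to -0.046), modifier (0.22 to 0.55), inward rectifier (-0.24 to 0.037), tandem-pore (-0.26 to 0.10), calcium- or sodium-gated (0.042 to 0.10) and auxiliary (-0.032 to 0.28). For partner genes the median was -0.040 to 0.10, with 0 to 6 called and 0 to 10 at an unadjusted p under 0.05. The log2 fold change took both signs in KCNA4 (-0.93 to 0.43), KCNAB2 (-0.28 to 0.21), KCNC2 (-0.083 to 0.11), KCND2 (-0.12 to 0.29), KCNE4 (-0.21 to 0.54), KCNF1 (-0.027 to 0.52), KCNH1 (-0.17 to 0.11), KCNH5 (-0.18 to 0.32), KCNIP2 (-0.052 to 0.41), KCNIP4 (-0.012 to 0.36), KCNJ3 (-0.0088 to 0.15), KCNJ6 (-0.064 to 0.36), KCNJ8 (-2.45 to 0.77), KCNJ11 (-0.41 to 0.060), KCNK2 (-0.13 to 0.87), KCNK3 (-0.27 to 0.016), KCNK9 (-0.050 to 0.25), KCNMA1 (-0.058 to 0.17), KCNN2 (-0.040 to 0.023), KCNRG (-0.88 to 0.055), KCNT2 (-0.13 to 0.21) and KCNV1 (-0.21 to 0.55). The cause was not tested. Precision is limited by 2 libraries per group and, for genes such as KCNJ8 and KCNH8, by few counts.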
